A study of Mus musculus with 6 samples.

Results

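Small RNA of mouse pachytene spermatocytes from mice homozygous for a gene trap in Tzfp (TzfpGTi/GTi, 1 library) was set against that of wild type (WT, 2 libraries), cluster by cluster. A cluster here is a stretch of the genome to which the authors assigned small RNA reads. Clusters with 40 or more reads summed over these 3 libraries were taken: 2064 of the 4944 clusters in the series (41.7%), holding 99.9% of the cluster reads of each library. A cluster that is not listed for a library counts as 0 reads there. At the threshold, cluster 1962 on chromosome 14 was taken at a sum of 40 (9 and 20 reads in WT, 11 in Tzfp), and piC_1872 on chromosome 5 was left out at 39.9 (8.53, 22.7 and 8.67).

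Pachytene piRNAs are small RNAs bound by PIWI proteins, which spermatocytes make in large amounts from long single-stranded precursors. The precursors come from a limited number of genomic clusters, most of them outside repeats, and a few clusters yield most of the piRNA. Tzfp, whose gene is Zbtb32, is a BTB zinc finger protein of the testis, a class of DNA-binding factors that often repress transcription. The title of the study names Tzfp and Alkbh1, a dioxygenase of the AlkB family, as repressors of 1 such cluster, and the comparison asks which clusters have more or fewer reads when Tzfp is trapped.

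Per the labels, the gene trap line came from an embryonic stem cell clone in which Omnibank Gene Trap Vector 76 puts a splice acceptor ahead of exon 1 of Tzfp. The label gives the same cell type, tissue and small RNA protocol to both genotypes: 50 ng of RNA under 200 nt, 15 PCR cycles and 36 bp single reads. Ages, strains, animal numbers and the way the cells were purified were not given in the sources used here, and no label says that the WT libraries came from separate animals. So the p-values below reflect how far these particular libraries spread, and that spread may be technical. No Tzfp mRNA library was analysed here, so the loss of Tzfp could not be checked. The fourth small RNA library, from Alkbh1-/- testes (exon 6 deleted), is given as values beside a few clusters.

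Cluster reads summed to 10193940 in WT replicate 1, 15319520 in WT replicate 2 and 14760893 in Tzfp. No member lay at or under 3 reads in any of the 3 libraries, and the median member had 42.3, 53.6 and 57.2 reads in that order. The members carry either a number (269) or a piC name (1795), and the meaning of these name classes was not given in the sources used here. The table of Tzfp is named like that of WT replicate 2, and the table of Alkbh1-/- like that of WT replicate 1, but no label calls this a batch. Folds are therefore given against each WT library, on RPM, the reads after scaling the cluster reads of each library to a total of 1000000.

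The cluster furthest from WT was the one for which the study is named, called the study cluster here, on mm9 chromosome 7 at 132472368 to 132476593, a stretch of 4226 bp. It had 4 and 94 reads in WT replicates 1 and 2 and 57188 in Tzfp, or 0.392, 6.14 and 3874 RPM. The Tzfp value was far above both WT values, which themselves differed. Its share of reads in Tzfp was 9874-fold that in WT replicate 1 (95% Clopper-Pearson interval of the ratio 3856 to 36239) and 631-fold that in WT replicate 2 (516 to 781). Such intervals reflect counting error alone: reads copied by PCR and lacking molecular identifiers do not stand for separate molecules. With 4 reads in WT replicate 1, the first fold has the wider interval. The Alkbh1-/- library had 1857.5 reads there (254 RPM), between WT and Tzfp.

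Reads of the study cluster were packed more tightly in Tzfp than those of any other member. At 917 RPM per kb it ranked 1 of 2064 by density in Tzfp, against ranks 1479 in WT replicate 1 (0.0929) and 258 in WT replicate 2 (1.45). The densest cluster of both WT libraries was 751 on chromosome 5 (150592401 to 150634600), with 716 and 708 in WT and 724 in Tzfp. So the study cluster in Tzfp was 1.27 times as dense as the densest WT cluster. By reads, which favour long clusters, it ranked 41 in Tzfp, 2061 in WT replicate 1 and 707 in WT replicate 2. The clusters that followed by density in Tzfp, 2249 (682), 1301 (630), 2405 (597) and 1921 (544), are all numbered.

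**Figure D1:**
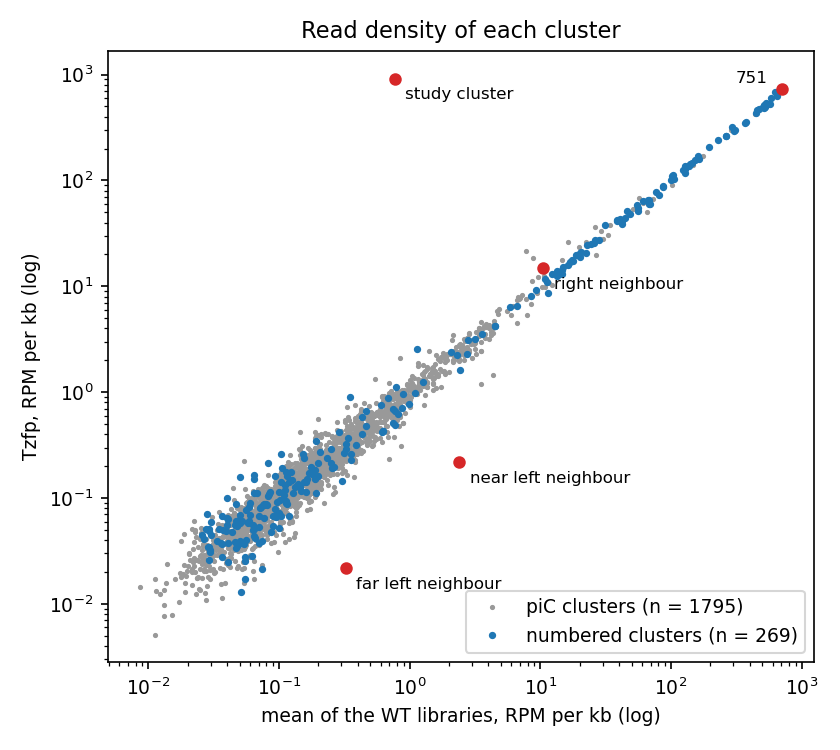
Read density of each of the 2064 clusters in Tzfp against the mean of the WT libraries, in RPM per kb on log axes; blue points are numbered clusters, grey points piC clusters, and red points are labelled clusters. Most clusters lie along a straight band, while the study cluster stands at 917 in Tzfp, above cluster 751 at 724, and the left neighbours lie below the band.

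The neighbours on the left of the study cluster, at smaller coordinates, were lower in Tzfp than in both WT libraries. The near left neighbour (chromosome 7, 132448301 to 132458800), which ends 13567 bp before it, had 257.5 and 383 reads in WT and 34 in Tzfp. The WT libraries held nearly the same share, 25.26 and 25.001 RPM, and Tzfp held 2.30. That is 11.0-fold lower than replicate 1 and 10.8-fold lower than replicate 2 (ratios 0.0617 to 0.130 and 0.0629 to 0.131 by counting). The far left neighbour (1081, 132435801 to 132448200), which ends 100 bp before the near one, had 36 and 69 reads in WT and 4 in Tzfp. Its share was 13.0-fold and 16.6-fold lower (ratios 0.0198 to 0.214 and 0.0159 to 0.161). Together these neighbours held 28.8 and 29.5 RPM in WT, 2.57 in Tzfp and 29.3 in Alkbh1-/-. Whether Tzfp differs from Alkbh1-/- here was not tested.

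On the right of the study cluster the folds were smaller. The right neighbour (132493001 to 132509300) begins 16407 bp beyond the study cluster and had 1610 and 2861 reads in WT and 3597 in Tzfp. Its share in Tzfp, 244 RPM, was 1.54-fold and 1.31-fold that in WT (158 and 187), with counting intervals clear of a ratio of 1 (1.45 to 1.64 and 1.24 to 1.37). The next member, piC_635 (132634824 to 132649018), had 16, 25 and 29.5 reads, 1.27-fold and 1.22-fold above WT, and both counting intervals span a ratio of 1 (0.684 to 2.54 and 0.708 to 2.21). Within 500 kb of the study cluster there were 3 further clusters below the read minimum, cluster 1080 (0, 0.25 and 0.5 reads), piC_2108 (8, 3 and 1) and 1083 (4.33, 1.67 and 1.73).

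The share of each cluster among the reads of these 4 numbered clusters differed between Tzfp and WT. In WT, the right neighbour held 84.4% and 84.0% of these reads, the near left neighbour 13.5% and 11.2%, and the study cluster 0.210% and 2.76%. In Tzfp, the study cluster held 94.0%, the right neighbour 5.91% and the near left neighbour 0.0559%. The 4 clusters together had 187 and 222 RPM in WT and 4121 in Tzfp. The deposited tables hold neither strand nor read length, so the strand of these reads, and whether they are of piRNA length, was not analysed here.

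**Figure D2:**
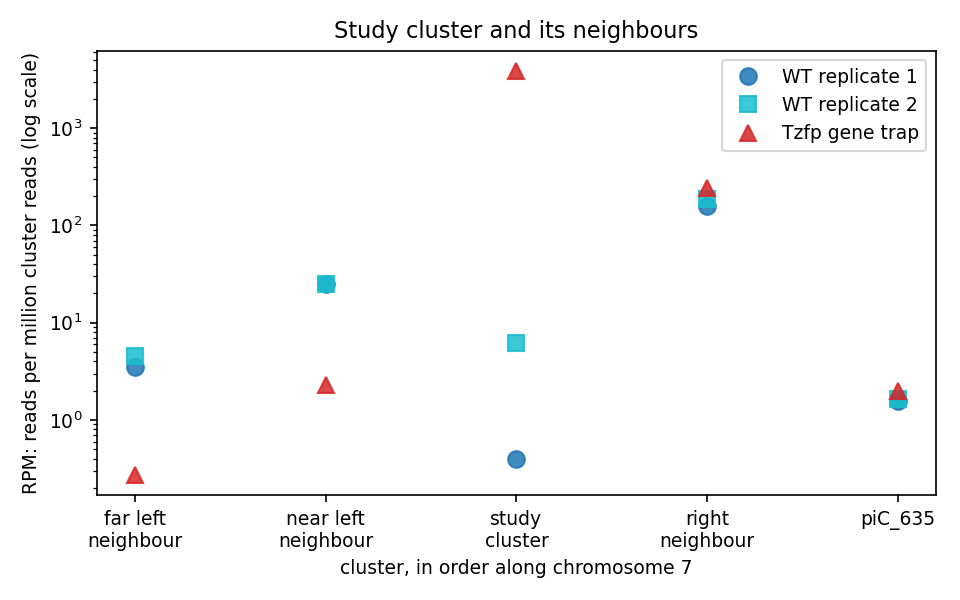
RPM (log axis) in each library for the 5 members within 500 kb of the study cluster, in their order along chromosome 7; circles and squares are the WT libraries and triangles are Tzfp. Tzfp lies below WT at both left neighbours, far above WT at the study cluster (3874 against 0.392 and 6.14), and within 1.54-fold of WT at the right neighbour and piC_635.

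No cluster passed the edgeR quasi-likelihood test at an adjusted p under 0.05 in either direction (0 of 2064, 0% called). At an unadjusted p under 0.05 there were 22 higher and 10 lower clusters of the 2064, fewer than evenly spread p-values would give. Only the WT pair supplies a residual degree of freedom (1), and the fit takes Tzfp to vary like WT. Its log2 folds were 10.05 ± 1.44 (SE) for the study cluster (edgeR adjusted p = 0.998), -3.48 ± 0.33 for the near left neighbour (adjusted p = 0.692), -3.90 ± 0.58 for the far left neighbour (adjusted p = 0.998) and 0.46 ± 0.31 for the right neighbour (adjusted p = 0.998). DESeq2's Wald test on the same clusters called 1 higher, the study cluster (log2 fold 10.12 ± 2.20, adjusted p = 0.00435), and 1 lower, the near left neighbour (-3.48 ± 0.53, adjusted p = 7.53e-08), each 0.0484% of clusters. The edgeR fit of all 4 small RNA libraries, with the read minimum taken over those 4, called the same pair among 2209 clusters (adjusted p = 0.0322 for each, 0.0453% each way). With all 4 libraries on the 2064 clusters it called 0 each way, with 30 clusters at an unadjusted p under 0.05. Without a read minimum, over 4834 clusters, edgeR called the study cluster (adjusted p = 1.62e-46) and both left neighbours (6.41e-07 for the near one and 4.59e-05 for the far one). That fit gave every cluster a shared spread, and it also called lower a cluster outside the locus, 715, with 13 and 17.5 reads in WT and 0.5 in Tzfp. The study itself picked its cluster and the values of the neighbours were known from earlier results, so the p-values at this locus are not independent of the choice.

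Outside that locus, the clusters at least 2-fold beyond both WT libraries had at most 123.5 reads over the 3 libraries. In all, with the locus included, 12 clusters (0.581%) were at least 2-fold above both WT libraries and 16 (0.775%) at least 2-fold below both. For scale, 54 clusters (2.62%) were 2-fold higher and 127 (6.15%) lower against WT replicate 1 alone. Against WT replicate 2 alone these were 128 (6.2%) and 32 (1.55%). Between the WT libraries themselves 32 clusters (1.55%) were 2-fold higher and 251 (12.2%) lower in replicate 2. The counts against a single WT library were thus larger than the 12 and 16 beyond both. They could not be smaller, since a cluster 2-fold beyond both libraries is also 2-fold beyond each. More clusters were lower than higher against replicate 1, and more were higher than lower against replicate 2.

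Without the study cluster, the 11 other clusters above both WT libraries lay at most 1.59 (log2) from the nearer WT library and had at most 123.5 reads over the 3 libraries. Without the left neighbours, the 14 others below lay at most 1.77 away and had at most 74 reads. Both counting intervals were clear of a ratio of 1 for 11 of the 12 and for 9 of the 16. An unadjusted edgeR p under 0.05 was reached by 9 and 8 of them, and an adjusted one by 0. All were picked by ratios from the same libraries, which favours such intervals and p-values, so these counts are not separate support. Over all 2064 clusters, 22 higher and 10 lower ones reached that unadjusted p, and the intervals were not counted. The 12 and the 16 were spread over 9 and 11 chromosomes, with 5 of the 12 and 5 of the 16 being numbered.

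Among clusters with a mean of 20 or more reads, the highest after the study cluster was piC_1349 (chromosome 17, 13181166 to 13199057). It had 6.17 and 20.5 reads in WT and 59.5 in Tzfp, 6.66-fold and 3.01-fold higher (log2 fold 1.98 ± 0.58, edgeR adjusted p = 0.998). The WT libraries differed here by more than 2-fold. Cluster 2597 (chromosome X, 100226601 to 100247400) followed with 15, 29.75 and 66 reads, 3.04-fold and 2.30-fold higher. Cluster 1976 (chromosome 14, 71779101 to 71802900) had 7.8, 24.9 and 55.15 reads, 4.88-fold and 2.30-fold higher. Both had under 1 read in Alkbh1-/-, 0.833 and 0.933, and a test of this difference was not run.

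Next came piC_146 on chromosome 2 (2.15-fold and 2.31-fold), 1785 on chromosome 13 (2.13-fold and 2.99-fold), piC_78 on chromosome 2 (2.19-fold and 2.04-fold), piC_1315 on chromosome 16 (2.02-fold and 2.23-fold) and 1172 on chromosome 8 (2.93-fold and 2.002-fold). Each of these had between 37 and 70.4 reads in Tzfp. Of these, piC_146 overlaps a cluster with more reads, so the same reads may enter both. The tenth, piC_441 (chromosome 5, 138602085 to 138621826), was the only well-covered cluster of the 10 apart from the study cluster. It had 1691 and 2822.5 reads in WT and 5418.5 in Tzfp, 2.21-fold and 1.99-fold higher (log2 fold 1.03 ± 0.28, edgeR adjusted p = 0.998). Its counting intervals, 2.09 to 2.34 and 1.90 to 2.09, are narrow, and its WT libraries lay close together at 166 and 184 RPM against 367. It had 6400 reads in Alkbh1-/-, a library of 7306115 cluster reads.

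Of the 10 lowest, the first after the left neighbours was 1701 (chromosome 12, 91993901 to 92021100). It had 20.45 and 31.25 reads in WT and 8.67 in Tzfp, 3.42-fold and 3.47-fold lower (log2 fold -1.73 ± 0.51, edgeR adjusted p = 0.998). Cluster piC_1032 on chromosome 11 had 24, 28.3 and 10 reads, 3.48-fold and 2.73-fold lower. The others were piC_389 on chromosome 5, piC_1307 on chromosome 16, piC_1267 and piC_2702 on chromosome 15, piC_2117 on chromosome 7 and piC_2293 on chromosome 9, from 1.94-fold to 3.71-fold lower. Of these 6, piC_2702 had the most reads, 84 and 120 in WT and 59.25 in Tzfp (2.05-fold and 1.96-fold lower), and it overlaps a cluster with more reads, so the same reads may enter both. The others had between 12.3 and 16 reads in Tzfp.

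**Figure D3:**
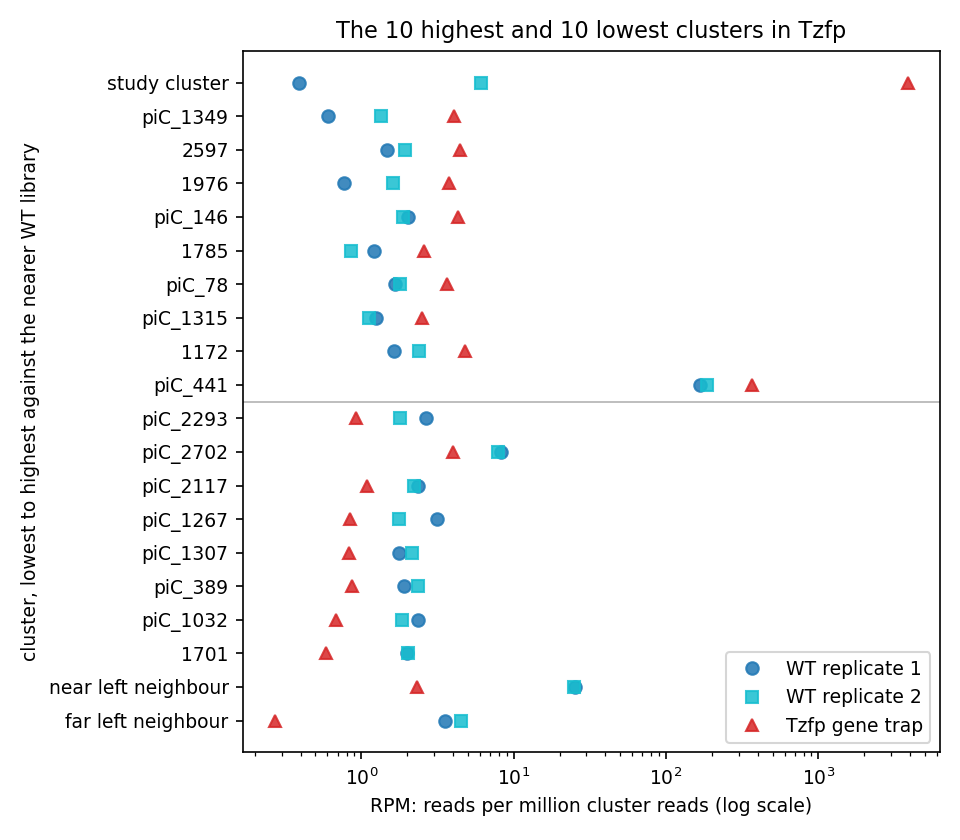
RPM (log axis) in the WT libraries (circles, squares) and Tzfp (triangles) for the 10 clusters furthest above and the 10 furthest below both WT libraries, among clusters with a mean of 20 or more reads. Apart from the study cluster, piC_441 and the near left neighbour, the points lie under 10 RPM.

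Among the 295 clusters with 1000 or more reads, chosen for description after their values were seen, only the study cluster was 2-fold beyond both WT libraries. The next were piC_441 and piC_2628 (chromosome 13, 113805470 to 113830839). Cluster piC_2628 had 1165 and 4279 reads in WT, which differ, and 8155.5 in Tzfp, 4.83-fold and 1.98-fold higher (log2 fold 1.42 ± 0.63, edgeR adjusted p = 0.998). Cluster 70 on chromosome 1 had 326 and 218 reads in WT and 768 in Tzfp, 1.63-fold and 3.66-fold higher. These 3 clusters had 6400, 7923 and 1755 reads in the smaller Alkbh1-/- library. Next in that direction came piC_2666 on chromosome 14, 1.48-fold and 1.45-fold higher at 429, 658 and 921 reads.

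On the low side, the 5 abundant clusters furthest from WT (465, 456, 461, 458 and 463) lay in 1 stretch of chromosome 4. Between 41737601 and 42824300 there were 10 numbered members, 456 to 465, of which 8 were below both WT libraries and 2 (460 and 464) above. Their log2 distance from the nearer WT library ran from -0.62 (465) to 0.088. Cluster 456 had 1123 and 1787 reads in WT and 1118 in Tzfp, 1.45-fold and 1.54-fold lower. None reached an unadjusted p under 0.05. The clusters are not independent: 6 of the 10 carried the values of another to 2 decimals (458 and 461, 457 and 462, 460 and 464). Whether reads of near-identical copies were divided among them was not tested.

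The clusters with most reads in WT held a similar part of the reads in Tzfp. The 10 most abundant WT clusters were 2249, 1301, 882, 200, 2405, 1031, 1297, 1709, 2098 and 716, and these were also the 10 most abundant in Tzfp. They held 49.6% and 48.5% of reads in WT and 48.8% in Tzfp. Their log2 ratios ran from -0.13 to 0.13 against WT replicate 1 and from -0.067 to 0.15 against replicate 2, no wider than the range between the WT libraries (-0.17 to 0.17). Of the 10, 5 lay between the WT libraries, 4 below both and 1 above both. That 1 was 2249 on chromosome 17 (27386801 to 27518200), the most abundant, with 84356 and 80837 RPM in WT and 89659 in Tzfp (log2 fold 0.09 ± 0.19, edgeR adjusted p = 0.998).

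**Figure D4:**
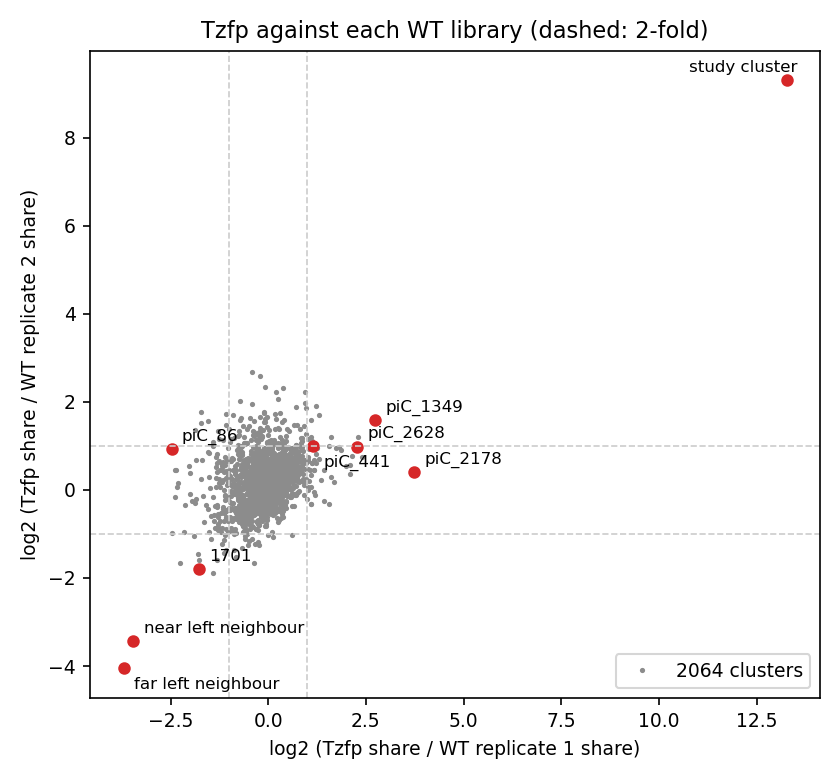
Log2 ratio of the Tzfp share to the share in WT replicate 1 (x axis) and WT replicate 2 (y axis) for the 2064 clusters (grey), with 2-fold marked by dashed lines and named clusters in red. Beyond the cloud around 0 lie the study cluster at upper right and its left neighbours at lower left; piC_86 and piC_2178, chosen after their values were seen, are far from 0 against replicate 1 and within 2-fold of replicate 2.

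Over all 2064 clusters together, the spread of Tzfp against either WT library was no wider than that between the WT libraries. Against WT replicate 1 the log2 ratios had an SD of 0.654 and against WT replicate 2 of 0.590, while the WT libraries set against each other gave 0.673. Without the study cluster these were 0.584, 0.555 and 0.667. Of the 2064 clusters, 691 (33.5%) had a Tzfp share above both WT libraries, 563 (27.3%) below both and 810 between them. The median log2 fold of the fit was -0.010. A pair of clusters chosen after their values were seen differed mainly between the WT libraries: piC_86 on chromosome 2 had 1656 and 237 reads in WT and 431 in Tzfp, and piC_2178 on chromosome 8 had 3.75, 56.5 and 71.75.

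Leaving out the study cluster, the spread was smallest in the most abundant class in all 3 pairs of libraries. The SD of the log2 ratio to WT replicate 2 went from 0.692 in the 710 clusters with 40 to 100 reads to 0.193 in the 109 with 10000 or more. To WT replicate 1 it went from 0.713 to 0.263, and between the WT libraries from 0.797 to 0.271. The WT pair did not go down at each step, with 0.527 in the clusters with 300 to 1000 reads and 0.626 in those with 1000 to 10000. Tzfp was within 1.25-fold of both WT libraries in 15.9% of the least abundant clusters and in 92.7% of the most abundant. The last class held 97.6% and 97.9% of all cluster reads in WT and 97.7% in Tzfp. Of the 12 clusters 2-fold above both WT libraries, 8 had under 100 reads over the 3 libraries, and of the 16 below, 14 did.

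**Figure D5:**
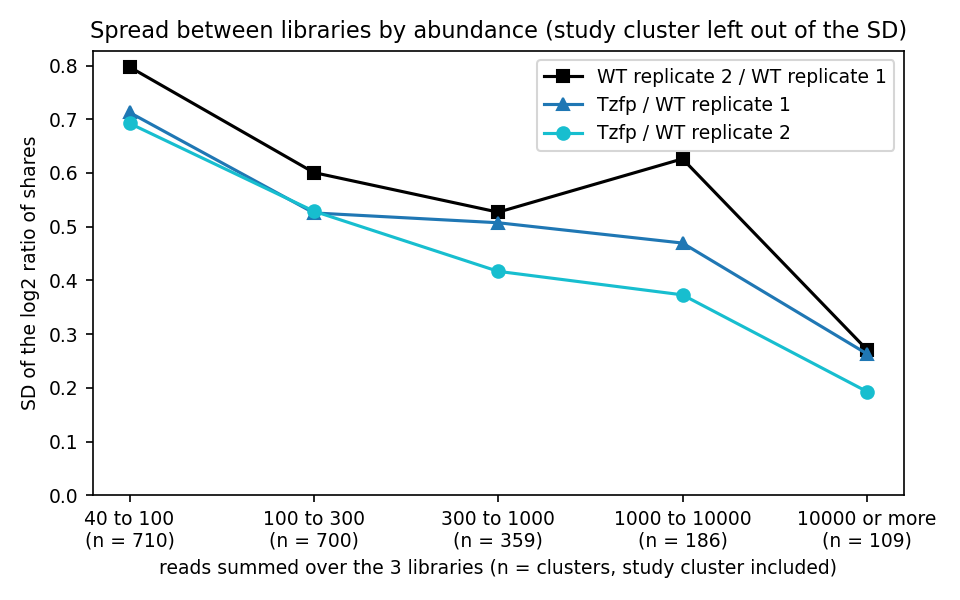
SD of the log2 ratio of shares in 5 classes of summed reads, for Tzfp over each WT library and for WT replicate 2 over replicate 1, with the study cluster left out of the SD. In every class the spread between the WT libraries (black) is at or above that of Tzfp to either WT library, and all 3 lines fall to 0.271 or less in the most abundant class.

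The division of reads between numbered and piC clusters was close to that in WT. Numbered clusters held 93.4% and 93.3% of reads in WT and 93.3% in Tzfp (92.9% without the study cluster). With 1000 or more reads, 83.9% of the 112 numbered and 69.4% of the 183 piC clusters were within 1.25-fold of both WT libraries. Of the numbered clusters, 5 of 269 (1.86%) were 2-fold above both WT libraries and 5 below. Of the piC clusters, 7 of 1795 (0.390%) were above and 11 (0.613%) below. The order of the spreads differed between the name classes, with both left neighbours kept among the numbered clusters. The log2 ratios of these neighbours to WT replicate 1 were -3.70 and -3.46. An SD without the neighbours was not computed, so the order cannot be credited to the name class. Without the study cluster, the SD of the log2 ratio over numbered clusters was 0.693 for Tzfp over WT replicate 1 and 0.635 over replicate 2, above the 0.627 of the WT pair. Over piC clusters it was 0.566 and 0.541, below the 0.671 of the WT pair. Numbered clusters with 1000 or more reads gave 0.244 and 0.277 against 0.309, and those under 1000 reads 0.881 and 0.785 against 0.754. The last group includes both left neighbours and held 4 of the numbered clusters above and all 5 of those below.

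By length, the 516 shortest clusters, the study cluster among them, had 5 (0.969%) 2-fold above both WT libraries and 6 (1.16%) below. The 516 longest had 0 and 1 (0.194%), against 0.581% and 0.775% of all members. Length went with depth, since the shortest held 2.42% of Tzfp reads and the longest 84.3%, and the 2 were not separated. On chromosome 7, 2 of 168 members (1.19%, against 0.581% of all members) were 2-fold above both WT libraries. Below both were 4 (2.38%, against 0.775%). These counts include the study cluster, the most extreme, and both left neighbours. Other autosomes had at most 2 each way. The median log2 ratio of an autosome lay between -0.220 (chromosome 18) and 0.039 (chromosome 9) against WT replicate 1.

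The X chromosome stood highest by median, at 0.288 against WT replicate 1 and 0.827 against replicate 2, over 13 members. Of these, 8 (61.5%, against 33.5% of all members) were above both WT libraries, 0 below both (against 27.3%) and 5 between. At 2-fold, 2 of the 13 (15.4%, against 0.581% of all members) were above both, 2597 and piC_1527, and 0 were below both. Cluster piC_1527, chosen after its values were seen, had 9, 8.5 and 30.5 reads. The WT libraries disagreed here: 9 of the 13 were lower in replicate 2 than in replicate 1. All 13 were higher in Tzfp than in replicate 2, but 8 than in replicate 1. Cluster 2548 (64033501 to 64052500) held most of the X reads, with 3451 and 1540 reads in WT and 2406 in Tzfp. The summed reads of the 13 gave a log2 ratio of -0.64 over WT replicate 1 and of 0.57 over replicate 2, so the direction depended on the WT library. In pachytene cells the X chromosome is transcriptionally silenced for the most part.

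Whether a cluster had any read differed only where reads were few. Of the 4834 clusters with reads in these libraries, 3578 had reads in all 3. There were 200 with reads in Tzfp alone, none above 5 reads, and 198 with reads in both WT libraries but not in Tzfp, none above 8.

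The cells were checked in the WT mRNA library, the only WT library in which genes were counted (8222671 counts). Zbtb32 had 2672 counts there, 325 CPM (counts scaled to a library total of 1000000). Of 10 pachytene spermatocyte markers 9 were matched, with 15036 CPM in sum. They included the lactate dehydrogenase subunit Ldhc (4866), the PIWI protein Piwil1 (1139), Mybl1, a transcription factor of pachytene piRNA genes (137), and the synaptonemal complex protein Sycp1 (121). Markers of other testis cells were present at lower sums: spermatids 1035 CPM, spermatogonia 148, Sertoli cells 2038 (1828 of it Clu), Leydig cells 61.1 and blood 0.730, with Hba-a1 at 0. The lists differ in length, so the sums do not measure purity. By gene, pachytene markers ran from 121 to 4866 CPM, spermatid markers from 22.9 to 303 and Sertoli markers from 5.23 to 1828. These ranges overlap, while spermatogonium markers reached 74.8 at most. Small RNA tables name no genes, so the makeup of the Tzfp cells was not tested. In bulk libraries, fewer cells of a type and less RNA per cell cannot be told apart.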

How the data were processed

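In each deposited small RNA table a cluster has an mm9 position, a name and the authors' expected count of reads, which can be fractional. The submitters' processing notes list CASAVA 1.3, Novoalign, TopHat and bedtools, without saying which did the counting. Genes of the deposited mRNA table have whole read counts, of which only the WT column was used (19848 of 21310 identifiers matched a symbol). Expected counts were rounded and fitted with edgeR 4.0.16 in R 4.3.3 (TMM, quasi-likelihood, Benjamini-Hochberg, threshold 0.05), with DESeq2 1.42.0 as an alternative. SE were taken from the fold and its F statistic. Ratios of shares of library totals (scipy 1.17.1 and pandas 2.3.3 on Python 3.11.15) raised values under 3 reads to 3. Of the members, 204 overlap a cluster with more reads, so some reads may count more than once. No genome or annotation of mm9 was used here, so gene context and sequences of clusters are not given. The members, marker lists and rule for named clusters were chosen with earlier results of these data known. The rule named the clusters that pass, the 10 highest and 10 lowest by distance from the nearer WT library at a mean of 20 or more reads, the 10 most abundant, those within 500 kb of the study cluster, and the most changed of a class. Others are marked as chosen after their values were seen, except 2548, named for its reads.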

Additional observations from a re-analysis of the deposited data

Results flagged for a closer look

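Below the read minimum of the comparisons, 7 clusters had 10 or more reads in Tzfp and at most 3 in each WT library, before scaling to library totals. They were piC_2077 on chromosome 7 (15 reads in Tzfp, against 3 and 0.25 in WT), 105 on chromosome 1 (14.25, against 2 and 2), piC_668 on chromosome 8 (12, against 3 and 2) and piC_2377 on chromosome 10 (11.25, against 2 and 3). The others were piC_1761 on chromosome 4 (10.6, against 3 and 1.33), piC_1679 on chromosome 2 (10, against 2 and 2.17) and piC_2090 on chromosome 7 (10, against 1.67 and 3). In Alkbh1-/- these 7 had between 0 and 5 reads. They were picked by their values among 2770 clusters left out for low reads. The reverse pattern, with few reads in Tzfp and more in both WT libraries, was not counted here. Without a read minimum, 49 clusters were 2-fold above both WT libraries and 60 were 2-fold below both. In the edgeR fit without a read minimum, the study cluster was the only one called higher, and 3 were called lower.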

How the results depend on the processing

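edgeR called 0 clusters each way in the main setting, with DESeq2 size factors, library totals alone, a read minimum of 200, overlapping clusters left out, or 4 libraries on the same clusters (an alternative added after seeing the data). DESeq2's Wald test and the fit of 4 libraries with their own read minimum called 1 higher and 1 lower, the study cluster and the near left neighbour; without a read minimum, 4834 clusters were tested and 1 was called higher (the study cluster) and 3 lower (both left neighbours and 715). In that fit the prior degrees of freedom were infinite, so every cluster was given a shared spread. Cluster 715 had 13 and 17.5 reads in WT and 0.5 in Tzfp. The adjusted p of the study cluster was 0.00435 by the Wald test, 1.62e-46 without a minimum and 0.0322 with 4 libraries, and 0.668 or more elsewhere; that of the near left neighbour was 7.53e-08, 6.41e-07 and 0.0322, and 0.235 or more elsewhere. That of the far left neighbour was 4.59e-05 without a minimum and 0.213 or more elsewhere. The cause of these differences was not tested. Clusters 2-fold above both WT libraries numbered 12, or 49 without a minimum and 1 with a minimum of 200; those below numbered 16, 60 and 1. With 1 WT library left out these counts ran from 54 to 128 and from 32 to 127. The SD of the log2 ratio to WT replicate 1 went from 0.654 to 0.584 without the study cluster (added after seeing the data), and that to replicate 2 from 0.590 to 0.4999 with a minimum of 200. Among the log2 folds of 32 named clusters, those of 5 abundant clusters near 0 changed sign: 2405 went from 0.00054 to -0.012 without a minimum and to -0.044 without WT replicate 1. Without WT replicate 1, 1301 went from -0.082 to 0.032, 882 from -0.058 to 0.0099 and 716 from -0.036 to 0.0062. Without replicate 2, 1031 went from -0.064 to 0.00060. Values without a WT library are plain ratios of shares of library totals, while the main folds come from edgeR with TMM scaling. So leaving out a library and changing the scaling were not separated in these sign changes. The counts of calls cannot be given without a WT library, since no residual degrees of freedom remain. No paired analysis was possible because Tzfp has 1 library and only WT carries replicate numbers. Depth limits clusters under 100 reads, where 22 of the 28 clusters beyond both WT libraries lie.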
